A study of Homo sapiens with 12 samples.

Results

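The genes of DNA replication and S phase were examined in human liver spheroid co-cultures with and without total parenteral nutrition (TPN). The list holds 43 genes, named for their part in copying the genome and chosen with earlier results of these data known. All 43 were among the 16705 genes of the expression table. RNA was sequenced from 12 libraries, 3 in each of 4 groups, which were untreated spheroids at 24 h and at 144 h and spheroids exposed to 1% TPN for 24 h and for 144 h. All groups carried the same cells, C3A, a clone derived from the hepatoma line HepG2 that keeps hepatocyte features, and LX-2, an immortalized line of hepatic stellate cells. TPN was a commercial infusion of lipids, glucose, electrolytes and amino acids to which vitamins and trace elements were added. Spheroids of each library were pooled before RNA extraction, and each cell type was represented by a single line, both of which proliferate in culture, unlike most cells of an adult liver. The study describes its RNA sequencing as coming from independent experiments, and the labels number the replicates without naming the cultures behind them. The p values measure the spread between these libraries. The study asked which transcripts change in such spheroids after a short and after a long exposure.

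DNA replication begins at origins that are marked by the origin recognition complex and loaded with the MCM helicase in G1, a step called licensing that needs CDC6 and CDT1. At the onset of S phase, cyclin E with its kinase and the E2F transcription factors turn on replication genes, CDC45 and the GINS complex activate the helicase, and primase and the polymerases alpha, delta and epsilon copy the strands behind it. The sliding clamp PCNA holds the polymerases on DNA, FEN1 and LIG1 join the lagging strand, and ribonucleotide reductase and thymidylate synthase supply nucleotides. Most hepatocytes of a healthy adult liver rest outside the cell cycle and switch these genes on when the liver regenerates, whereas hepatoma cells transcribe them while they divide.

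Expression was given as FPKM, the fragments per kilobase of transcript scaled by the mapped fragments of a library, which is a level per transcript length. Over all genes, the summed FPKM ranged from 561657 to 583722 among the libraries, and between 10936 and 11074 genes reached 1 FPKM. Depth is not given in the sources used here, and the steps between low values of short genes gave an estimate of 18155000 to 19125000 fragments per library, at which 1 FPKM on 2000 bases is worth 37.4 fragments. All 43 genes passed the filter of a mean of at least 0.5 FPKM over the 12 libraries, so that none was left out of the tests, which covered 11713 genes. Their mean levels ran from 1.88 FPKM for CCNE2 to 301 FPKM for PCNA, and the coefficient of variation among 3 replicates had medians between 2.54% and 3.89% in the 4 groups. A gene was called when its adjusted p value (limma, Benjamini-Hochberg over all genes tested) was below 0.05, and it was past both thresholds when its log2 fold change was also larger than 0.58 in size. The log2 fold changes are on the scale of log2(FPKM + 0.1).

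Replication genes are known targets of E2F factors, whose sites near a start of transcription often read as 1 of a few related words. Promoter windows of 300 bases, 250 before to 50 after an annotated start (RefSeq, GRCh38.p14), could be matched for 38 of the 43 genes, and MCM4, MCM5, GINS4, POLD3 and CCNE2 were not matched. At least 1 of the words TTTCCCGC, TTTGGCGC, TTTCGCGC and TTTGCCGC, read on both strands and allowed to overlap, was present in 19 of these 38 genes (50%), in 638 of the 9494 tested genes with a window (6.72%) and in 1090 of all 27305 genes with a window (3.99%). The word CCAAT, read by the factor NF-Y, was present in 22 of the 38 genes (57.9%) and in 43.4% of the tested genes. An E2F word and CCAAT occurred in the same gene in 11 of 38 (28.9%) and in 3.44% of the tested genes. The words TTTGAA and TTCGAA, the core of the element found in many mitosis genes, were present in 2 of 38 (5.26%) and in 15.5% of the tested genes. These counts describe letters in a window and not binding. The 120 bases that end just before the first listed start are shown for 6 genes with an E2F word in that stretch and for RFC5, RFC1 and SLBP, which had none in the whole window. Among the genes without a word, RFC5 had the lowest log2 fold change with TPN at 144 h, and RFC1 and SLBP had the smallest called ones of the 43 genes. Each is written 5′ to 3′ on the strand of the gene, with the E2F words in capitals. They lie at chr2:135876444-135876563 (minus strand), chr7:100101398-100101517 (minus strand), chr20:33686386-33686505 (minus strand), chr18:657533-657652 (plus strand), chr12:132687343-132687462 (minus strand), chr19:48170345-48170464 (minus strand), chr12:118016583-118016702 (plus strand), chr4:39366363-39366482 (minus strand) and chr4:1712320-1712439 (minus strand).
MCM6: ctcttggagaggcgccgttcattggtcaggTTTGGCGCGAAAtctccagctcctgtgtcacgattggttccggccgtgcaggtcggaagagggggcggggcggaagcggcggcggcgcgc
MCM7: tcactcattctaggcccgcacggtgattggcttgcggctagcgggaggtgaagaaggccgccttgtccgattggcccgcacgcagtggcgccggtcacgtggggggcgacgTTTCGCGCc
E2F1: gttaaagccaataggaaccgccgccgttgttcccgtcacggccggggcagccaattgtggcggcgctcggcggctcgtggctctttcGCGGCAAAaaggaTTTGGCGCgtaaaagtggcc
TYMS: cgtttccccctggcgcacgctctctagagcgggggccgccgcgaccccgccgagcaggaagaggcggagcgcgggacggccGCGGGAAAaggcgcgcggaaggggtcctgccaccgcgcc
POLE: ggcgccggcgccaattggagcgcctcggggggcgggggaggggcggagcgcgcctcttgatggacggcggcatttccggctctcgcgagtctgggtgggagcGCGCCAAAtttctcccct
LIG1: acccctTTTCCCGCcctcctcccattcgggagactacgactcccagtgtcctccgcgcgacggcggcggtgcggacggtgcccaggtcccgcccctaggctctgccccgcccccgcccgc
RFC5: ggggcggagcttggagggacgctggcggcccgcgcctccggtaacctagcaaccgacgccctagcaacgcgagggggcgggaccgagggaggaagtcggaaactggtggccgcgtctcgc
RFC1: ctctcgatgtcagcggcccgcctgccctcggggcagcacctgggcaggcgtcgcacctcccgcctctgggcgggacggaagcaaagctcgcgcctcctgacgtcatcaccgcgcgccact
SLBP: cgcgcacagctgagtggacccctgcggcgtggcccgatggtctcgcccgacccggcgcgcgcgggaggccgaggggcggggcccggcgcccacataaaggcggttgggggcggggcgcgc

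Together the 43 genes took up less of the RNA with time and less again under TPN. Their FPKM summed to 2181, 2209 and 2222 in untreated spheroids at 24 h and to 1966, 1958 and 1970.1 in spheroids exposed for 24 h. At 144 h the sums were 1376, 1369 and 1374 in untreated and 989, 974 and 1004 in exposed spheroids. The 4 groups did not overlap in this sum, and exposed spheroids at 144 h were lowest. The mean sum was 10.9% lower with TPN at 24 h, 28.0% lower with TPN at 144 h, and 37.7% lower in untreated spheroids at 144 h than at 24 h, falls that are given as a description of the sum. Against untreated spheroids at 24 h, the group mean of a gene had a median of 90.2% with TPN at 24 h, 61.6% without TPN at 144 h and 43.4% with TPN at 144 h. In bulk RNA of pooled spheroids, fewer cells in S phase and less RNA of these genes per cell cannot be told apart.

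**Figure D1:**
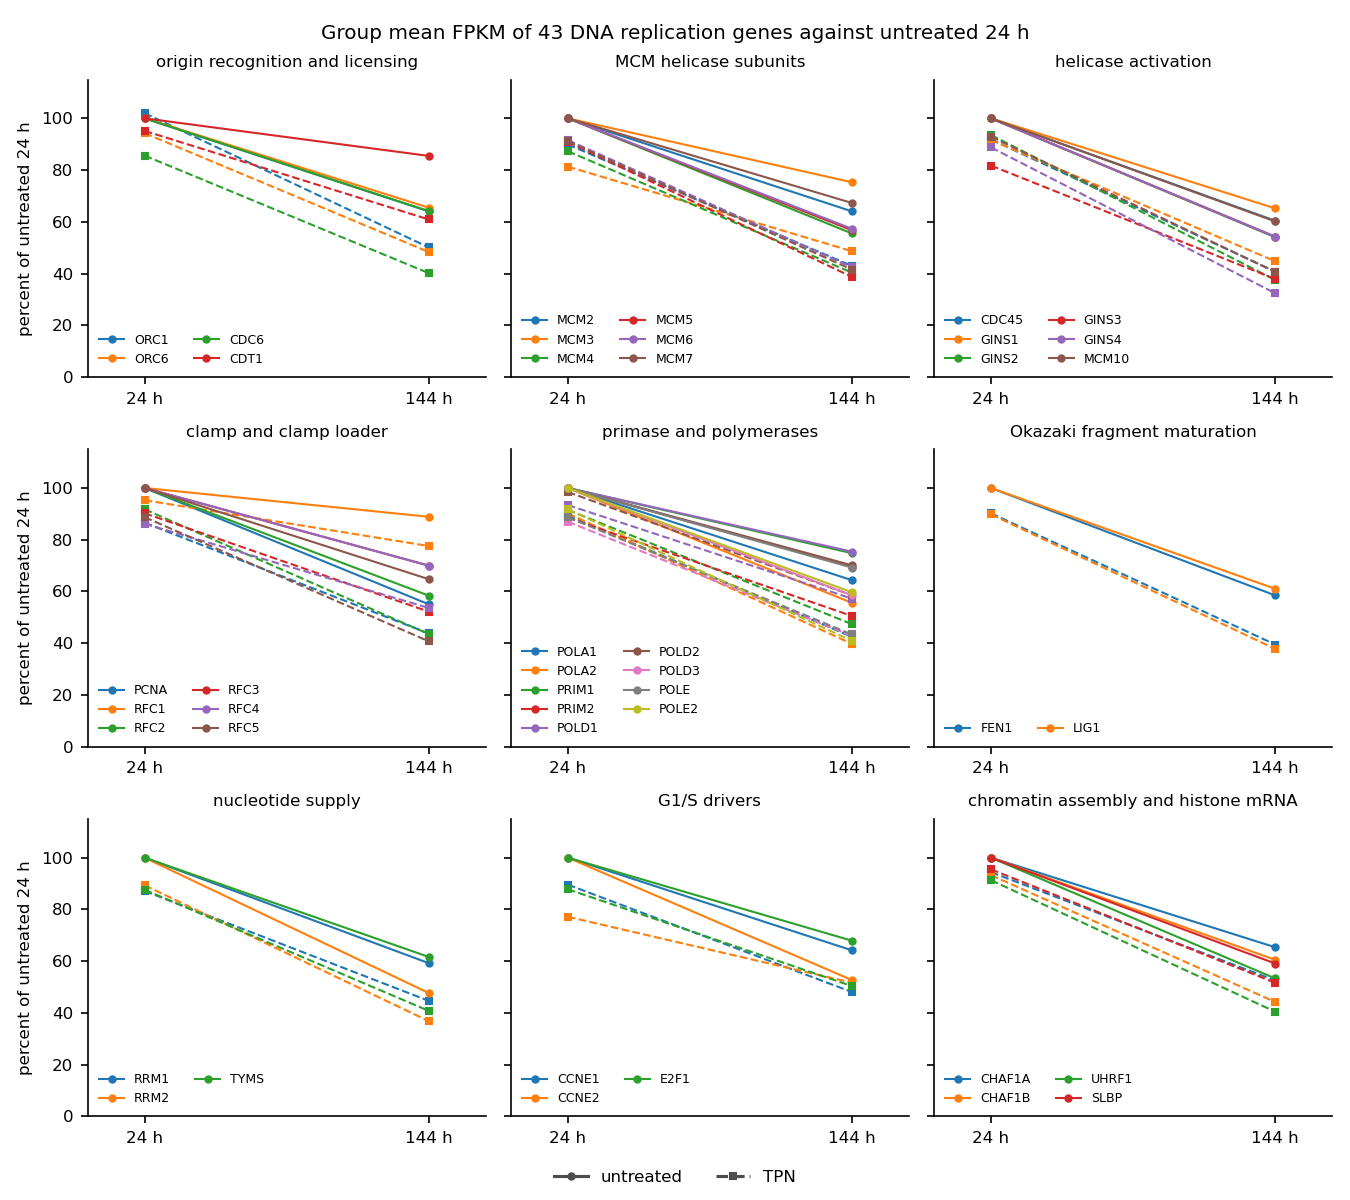
Group mean FPKM of each of the 43 genes as percent of its mean in untreated spheroids at 24 h (vertical axis), at 24 h and 144 h (horizontal axis), by role, where solid lines with circles are untreated and dashed lines with squares are exposed to 1% TPN. The dashed lines end lower than the solid lines at 144 h in every panel, with CCNE2 at 51.7% and 52.7% as the closest pair of ends, and RFC1 stays highest at 77.6% with TPN.

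After 24 h of exposure, replication genes were slightly lower than in untreated spheroids. Of the 43 genes, 17 were called, all lower, where 5.46% of all genes tested were called lower, and 26 were not called. The limma fit called 0 genes higher, where 5.04% of all genes tested were, and none was past both thresholds, at the adjusted or at an unadjusted p value below 0.05 (0.273% of all genes tested were, in the lower direction), while 31 genes were lower and 0 higher at an unadjusted p below 0.05, where 12.7% and 11.2% of all genes tested were. The 3 exposed libraries lay below the 3 untreated ones in 32 genes and overlapped with them in 11, where 15.9% of all genes tested did not overlap in the lower direction. The median log2 fold change of the 43 genes was -0.15, with a median of -0.0045 over all genes tested. The range was from -0.37 for CCNE2 to 0.026 for ORC1, the only gene with a value above 0, and ORC1 was not called. MCM3, a subunit of the replicative helicase, had the lowest level relative to untreated spheroids after CCNE2, at 81.3% (log2 fold change -0.30, SE 0.023, adjusted p = 1.76e-06). By role, called genes were 5 of 6 MCM subunits, 3 of 3 genes of nucleotide supply, 3 of 6 of the clamp and its loader, 2 of 3 G1/S drivers, 1 of 4 of licensing, 1 of 6 of helicase activation, 1 of 2 of lagging strand joining, 1 of 4 of chromatin assembly and histone mRNA, and 0 of 9 of primase and the polymerases. Of the 17 calls, 6 were lost in some of the 23 alternatives to the processing, those of CCNE2 in 16, FEN1 in 11, UHRF1 in 9, RFC2 in 7, MCM5 in 6 and E2F1 in 3. In turn 5 genes gained a call in some of them, LIG1 in 4, POLE and CCNE1 in 2 each, and RFC3 and PRIM2 in 1 each. For the 9 primase and polymerase genes the log2 fold changes ran from -0.20 for POLD3 to -0.023 for POLD2.

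After 144 h of exposure, 42 of the 43 genes were called lower than in untreated spheroids of the same time, against 28.3% of all genes tested. CCNE2, with a log2 fold change of -0.025, was the gene not called. The median log2 fold change was -0.46, with -0.018 over all genes tested, and 59.8% of the untreated level was the lowest ratio of means, for GINS4. In all, 10 genes were past both thresholds, against 3.73% of all genes tested in the lower direction. They were GINS4, MCM7, LIG1, CDC6, RFC5, POLE, PRIM1, MCM3, TYMS and POLA1, drawn from 7 of the 9 roles. POLA1, the catalytic subunit of polymerase alpha, was just past the threshold of 0.58 with -0.588, and MCM2 was just short of it with -0.575. The libraries of the 2 groups did not overlap in 42 genes, where 30.2% of all genes tested did not overlap in the lower direction. In the 38 genes with a promoter window, the median was -0.53 in the 19 with an E2F word (-0.70 to -0.33) and -0.41 in the 19 without (-0.67 to -0.19). The ranges overlapped for most of their length. RFC5 and PRIM1 had no word and were past both thresholds, and no test was made.

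**Figure D2:**
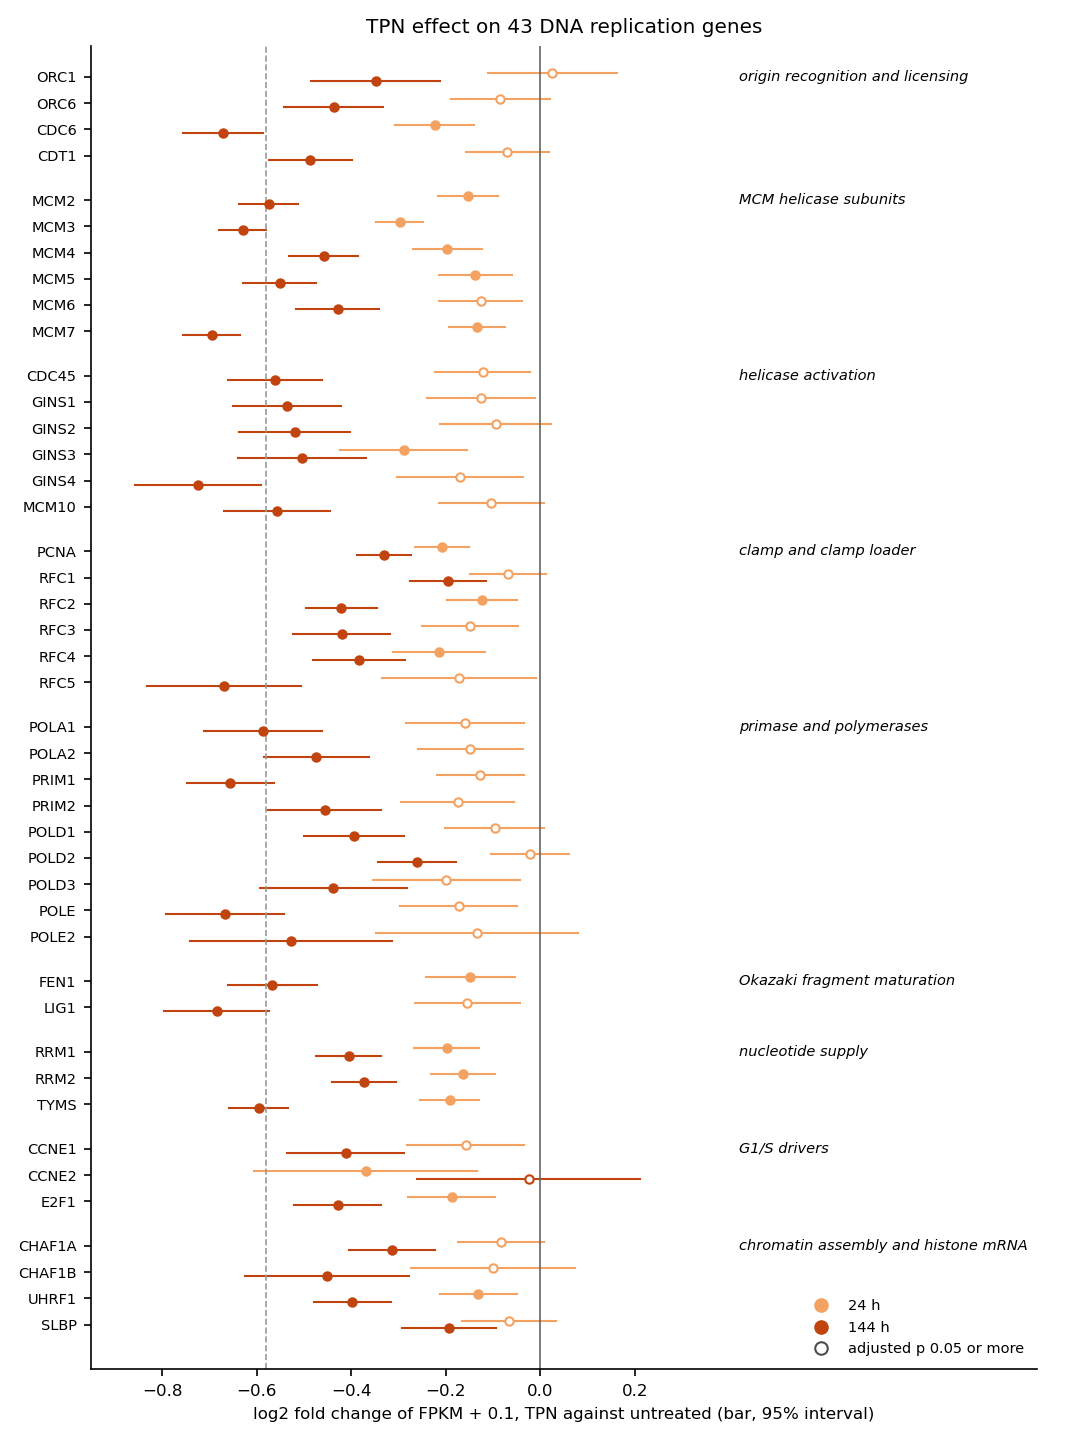
Log2 fold change of FPKM + 0.1 for TPN against untreated (horizontal axis) in each of the 43 genes (vertical axis, grouped by role), at 24 h (light) and 144 h (dark). Bars are 95% intervals from limma, filled points have an adjusted p below 0.05, open points do not, and the dashed line marks -0.58. The dark points lie left of the light ones in 42 genes and CCNE2 has them in the other order.

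**Figure D3:**
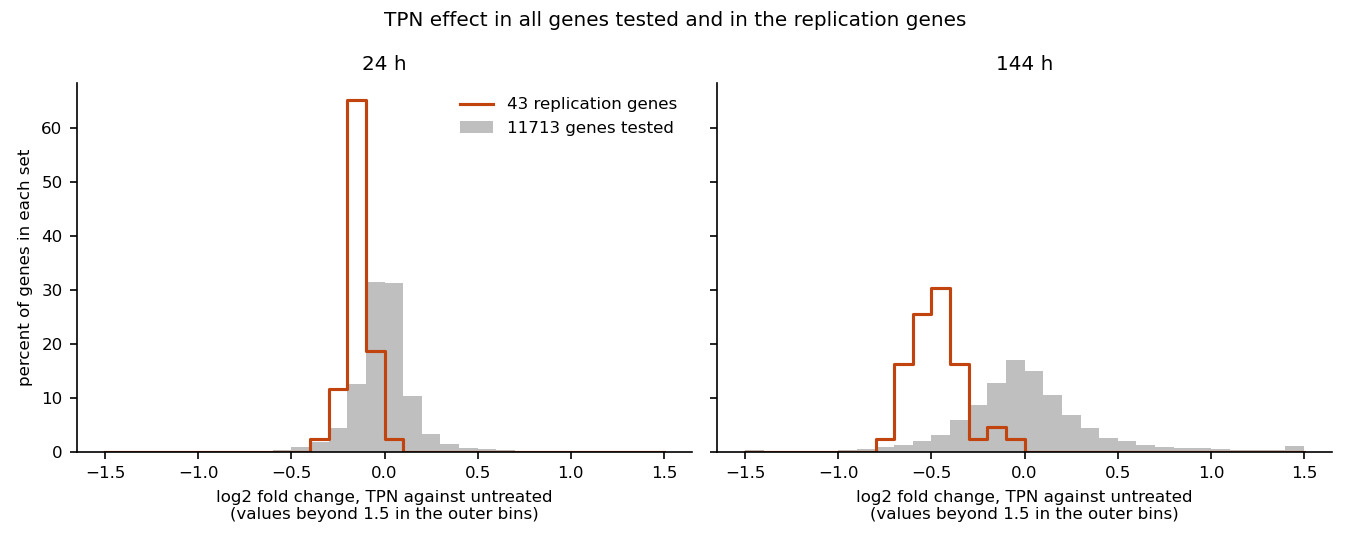
Percent of genes (vertical axis) by log2 fold change for TPN against untreated (horizontal axis, bins of 0.1) at 24 h and 144 h, for the 11713 genes tested (grey) and the 43 replication genes (line). The replication genes are a narrow group left of 0, apart from ORC1 at 24 h (0.026). Of the 43, 28 lie between -0.2 and -0.1 at 24 h and 31 between -0.7 and -0.4 at 144 h.

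In the role of origin recognition and licensing, CDC6, which loads the helicase with the origin recognition complex, showed the largest difference of its role at 144 h. CDC6 stood at 29.6, 29.1 and 28.9 FPKM in untreated and 24.99, 25.6 and 24.4 FPKM in exposed spheroids at 24 h. At 144 h it stood at 18.8, 19.04 and 18.3 FPKM without and 12.2, 11.9 and 11.1 FPKM with TPN. The groups did not overlap at either time, with log2 fold changes of -0.22 (SE 0.039, adjusted p = 0.00216) at 24 h and -0.67 (SE 0.039, adjusted p = 1.15e-08) at 144 h. ORC1, the largest subunit of the origin recognition complex, was at 13.8, 13.3 and 14.4 FPKM in untreated and 13.6, 13.2 and 15.4 FPKM in exposed spheroids at 24 h, where the groups overlapped and exposed replicate 3 was the highest library. At 144 h ORC1 was at 8.35, 8.74 and 9.45 FPKM without and 6.73, 6.85 and 7.18 FPKM with TPN, and all exposed libraries were lower (log2 fold change -0.35, SE 0.063, adjusted p = 3.96e-04). The other 2 genes, ORC6 and CDT1, were called lower at 144 h with -0.44 and -0.49 and were not called at 24 h, with -0.085 and -0.070. CDT1 differed from the rest of its role in its course without TPN, since it kept 85.5% of its 24 h level at 144 h where ORC1, ORC6 and CDC6 kept 64.03% to 65.5%.

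All 6 subunits of the MCM helicase, which unwinds DNA ahead of the fork, were called lower with TPN at 144 h, and all but MCM6 also at 24 h. MCM7 showed the largest difference at 144 h, and its libraries were at 144, 145 and 151 FPKM in untreated and 135, 130.2 and 135 FPKM in exposed spheroids at 24 h. By 144 h they were at 97.8, 97.4 and 100.4 FPKM without and 60.9, 61.2 and 60.3 FPKM with TPN. The log2 fold change of MCM7 was -0.13 (SE 0.028, adjusted p = 0.00676) at 24 h and -0.70 (SE 0.028, adjusted p = 3.34e-10) at 144 h, with no overlap at either time. MCM6 showed the smallest difference of the 6 and was also the subunit with the lowest level, at 18.8, 19.1 and 18.1 FPKM in untreated and 17.1, 16.5 and 17.6 FPKM in exposed spheroids at 24 h. At 144 h MCM6 was at 10.3, 10.8 and 10.9 FPKM without and 7.85, 7.90 and 7.98 FPKM with TPN, again with no overlap (log2 fold change -0.43, SE 0.041, adjusted p = 1.30e-06). At 24 h the exposed libraries of MCM6 were likewise all lower, but its difference of -0.13 was not called (adjusted p = 0.0676). MCM2, MCM3, MCM4 and MCM5 had log2 fold changes at 144 h of -0.58, -0.63, -0.46 and -0.55. The subunits act as a ring with equal parts of each, whereas their FPKM were unequal, since MCM3 made up 32.2% ± 0.233 (SD, n = 3) of the summed FPKM of the 6 genes in untreated spheroids at 24 h and MCM6 3.24% ± 0.142. The share of MCM3 was 30.0% ± 0.120 with TPN at 24 h, 36.6% ± 0.252 without TPN at 144 h and 36.0% ± 0.296 with TPN at 144 h, so that it was lower in exposed spheroids at each time and the libraries did not overlap at either.

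The genes that activate the helicase, CDC45, the 4 GINS subunits and MCM10, were all called lower with TPN at 144 h, and 1 of the 6, GINS3, at 24 h. GINS4 had the lowest log2 fold change of the 43 genes with TPN at 144 h, and at 24 h it was at 9.75, 9.11 and 9.41 FPKM in untreated and 8.24, 8.52 and 8.34 FPKM in exposed spheroids. Its libraries at 144 h were at 5.17, 5.38 and 4.78 FPKM without and 2.82, 3.20 and 3.14 FPKM with TPN. The exposed libraries were below the untreated ones at both times, with a difference of -0.72 (SE 0.062, adjusted p = 4.45e-07) at 144 h and of -0.17 at 24 h, which was not called (adjusted p = 0.107). GINS3 was at 9.66, 10 and 10.1 FPKM in untreated and 7.68, 8.04 and 8.63 FPKM in exposed spheroids at 24 h, and at 5.87, 5.21 and 5.09 and 3.71, 3.72 and 3.86 FPKM at 144 h. Its groups did not overlap at either time, with log2 fold changes of -0.29 (SE 0.062, adjusted p = 0.00895) and -0.50 (SE 0.062, adjusted p = 1.50e-05). The rest of the role lay close together at 144 h, with -0.52 for GINS2, -0.54 for GINS1, -0.56 for MCM10 and -0.56 for CDC45.

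Among the sliding clamp and its loader, 6 of 6 genes were called lower with TPN at 144 h and 3 of 6 at 24 h (PCNA, RFC2 and RFC4). RFC5, a small subunit of the clamp loader, was at 28.6, 31.5 and 29.2 FPKM in untreated and 25.8, 27.8 and 25.7 FPKM in exposed spheroids at 24 h. At 144 h RFC5 was at 19.04, 20.8 and 18 FPKM without and 12.3, 10.6 and 13.4 FPKM with TPN. The 2 groups did not overlap at either time, but only the difference at 144 h was called, with -0.67 (SE 0.076, adjusted p = 6.57e-06) against -0.17 (adjusted p = 0.184) at 24 h. RFC1, the large subunit of the loader, changed little in comparison, from 22.9, 24.2 and 24.5 FPKM in untreated to 22.7, 22.6 and 23.02 FPKM in exposed spheroids at 24 h, where the groups overlapped. Its libraries at 144 h were at 21.7, 21 and 21 FPKM without and 19.3, 18.2 and 18.1 FPKM with TPN, which did not overlap (log2 fold change -0.20, SE 0.038, adjusted p = 6.43e-04). The FPKM of RFC1 over the mean FPKM of RFC2 to RFC5 was 0.691 ± 0.0140 (SD, n = 3) in untreated spheroids at 24 h and 0.738 ± 0.0133 with TPN at 24 h. It was 0.931 ± 0.0184 without TPN at 144 h and 1.12 ± 0.0456 with TPN at 144 h, with no overlap between the 4 groups. PCNA, the gene with the highest level, was at 233, 228 and 236 FPKM without and 184, 179 and 190.5 FPKM with TPN at 144 h (log2 fold change -0.33, SE 0.027, adjusted p = 2.71e-07), and RFC2, RFC3 and RFC4 had differences between -0.42 and -0.38.

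None of the 9 genes of primase and the polymerases was called at 24 h (POLE in 2 and PRIM2 in 1 of the 23 alternatives), and all 9 were called lower at 144 h. POLE, the catalytic subunit of the leading strand polymerase epsilon, was at 21.7, 21.6 and 22.3 FPKM in untreated and 18.5, 19.6 and 20.1 FPKM in exposed spheroids at 24 h. At 144 h POLE was at 14.6, 16.5 and 14.2 FPKM without and 9.86, 9.72 and 8.89 FPKM with TPN. Its groups did not overlap at either time, and the log2 fold change was -0.17 (adjusted p = 0.0759) at 24 h and -0.67 (SE 0.058, adjusted p = 5.06e-07) at 144 h. POLD2, an accessory subunit of polymerase delta, was at 92.9, 93.2 and 92.7 FPKM in untreated and 90.9, 93.5 and 90.05 FPKM in exposed spheroids at 24 h, which overlapped. At 144 h POLD2 was at 62.9, 64.2 and 68.3 FPKM without and 52.4, 53.3 and 57.4 FPKM with TPN, which did not (log2 fold change -0.26, SE 0.038, adjusted p = 6.72e-05). PRIM1, the catalytic subunit of primase, and POLA1 were past both thresholds with -0.66 and -0.59. The remaining genes POLA2, PRIM2, POLD1, POLD3 and POLE2 had values between -0.53 and -0.39.

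The 2 genes that join the lagging strand had among the larger differences at 144 h. LIG1, the ligase that seals the nicks, was at 29.3, 30.9 and 30.9 FPKM in untreated and 26.2, 27.4 and 28.2 FPKM in exposed spheroids at 24 h, and at 17.3, 19.9 and 18.4 and 11.2, 11.98 and 11.3 FPKM at 144 h. The groups did not overlap at either time, with log2 fold changes of -0.15 (adjusted p = 0.0753, not called) and -0.68 (SE 0.052, adjusted p = 1.32e-07). FEN1, the nuclease that trims flaps, was at 62.1, 63.2 and 64.4 FPKM in untreated and 56.4, 55.6 and 59.1 FPKM in exposed spheroids at 24 h, and at 36.8, 37.4 and 36.8 and 24.2, 23.7 and 27.02 FPKM at 144 h. It too did not overlap at either time, with -0.15 (SE 0.044, adjusted p = 0.0457) at 24 h, and -0.57 (SE 0.044, adjusted p = 1.65e-07) at 144 h. The call of FEN1 at 24 h was lost in 11 of the 23 alternatives to the processing (adjusted p 0.00811 to 0.146), among them those without any 1 of the untreated libraries or without exposed replicate 1 or 2 of 24 h.

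All 3 genes of nucleotide supply were called lower with TPN at both times. TYMS, thymidylate synthase, was at 181, 178 and 179 FPKM in untreated and 158, 155 and 158 FPKM in exposed spheroids at 24 h. At 144 h TYMS was at 112, 109.6 and 109 FPKM without and 73.2, 70.2 and 75.9 FPKM with TPN. The groups did not overlap at either time, with -0.19 (SE 0.029, adjusted p = 7.69e-04) and -0.60 (SE 0.029, adjusted p = 2.11e-09). The gene overlaps ENOSF1 on the opposite strand, so that fragments of the shared stretch may be divided between them. RRM2, the small subunit of ribonucleotide reductase that is made in S phase, was at 101, 103 and 102 FPKM in untreated and 92.9, 88.4 and 92.8 FPKM in exposed spheroids at 24 h. By 144 h RRM2 was at 49.6, 48.01 and 48.8 FPKM without and 38.6, 36.3 and 38.02 FPKM with TPN, the largest fall with time of the 43 genes in untreated spheroids. The exposed libraries were lower at both times, with -0.16 (SE 0.031, adjusted p = 0.00407) and -0.37 (SE 0.031, adjusted p = 3.65e-07). RRM1, the large subunit, had log2 fold changes of -0.20 and -0.41. The ratio of RRM2 to RRM1 in FPKM at 24 h was 2.62 ± 0.0418 (SD, n = 3) without and 2.69 ± 0.0425 with TPN, and at 144 h it was 2.11 ± 0.0475 and 2.16 ± 0.0681. The libraries overlapped between untreated and exposed spheroids at each time and did not overlap between the times.

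Of the G1/S drivers, E2F1 and CCNE1 were called lower with TPN at 144 h and CCNE2 was not. E2F1, an activator of replication genes, was at 26.8, 28.1 and 27.6 FPKM in untreated and 23.3, 25.7 and 23.6 FPKM in exposed spheroids at 24 h, and at 18.4, 18.3 and 19.3 and 14.1, 13.5 and 13.98 FPKM at 144 h. Exposed libraries of E2F1 were lower at both times, with -0.19 (SE 0.043, adjusted p = 0.0119) and -0.43 (SE 0.043, adjusted p = 1.98e-06). Its call at 24 h was lost without untreated replicate 2, exposed replicate 1 or exposed replicate 3 of that time, with adjusted p values of 0.00452 to 0.0574 over the 23 alternatives. CCNE2, the other cyclin E gene, had the lowest level of the 43 genes, with 2.61, 2.64 and 2.76 FPKM in untreated and 2.38, 2.06 and 1.74 FPKM in exposed spheroids at 24 h. At 144 h CCNE2 was at 1.48, 1.29 and 1.45 FPKM without and 1.30, 1.38 and 1.46 FPKM with TPN, which overlapped (log2 fold change -0.025, 95% interval -0.26 to 0.21, adjusted p = 0.864). Its exposed libraries at 24 h did not overlap with the untreated ones and were spread more widely, and the difference of -0.37 (SE 0.11, adjusted p = 0.0474) lost its call in 16 of the 22 alternatives that tested it (adjusted p 0.0199 to 0.178), 10 of which left out 1 library other than exposed replicate 1 of 24 h or untreated replicate 2 of 144 h. CCNE1 had -0.16 (adjusted p = 0.102) at 24 h and -0.41 (adjusted p = 4.23e-05) at 144 h.

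Genes of chromatin assembly and histone mRNA, which act behind the fork, were called lower at 144 h in 4 of 4 cases and none was past both thresholds. CHAF1B, a subunit of the chromatin assembly factor CAF-1, was at 10.8, 12.4 and 11.3 FPKM in untreated and 9.98, 10.8 and 11.5 FPKM in exposed spheroids at 24 h, and at 7.15, 6.95 and 6.84 and 5.25, 4.44 and 5.61 FPKM at 144 h. The groups overlapped at 24 h and not at 144 h, with log2 fold changes of -0.10 (adjusted p = 0.503) and -0.45 (SE 0.081, adjusted p = 3.60e-04). SLBP, which binds the stem-loop of replication-dependent histone mRNAs, was at 42.2, 41.9 and 45.7 FPKM in untreated and 43.04, 41.1 and 39.8 FPKM in exposed spheroids at 24 h, and at 25.7, 26.4 and 24.6 and 21.8, 23.4 and 21.8 FPKM at 144 h. It also overlapped at 24 h only, with -0.066 (adjusted p = 0.425) at 24 h and -0.19 (SE 0.046, adjusted p = 0.00292) at 144 h, the smallest called difference of the 43 genes. CHAF1A and UHRF1, which recruits the maintenance methyltransferase to new DNA, had -0.31 and -0.40 at 144 h, and UHRF1 was the 1 gene of the 4 that was called at 24 h (-0.13).

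**Figure D4:**
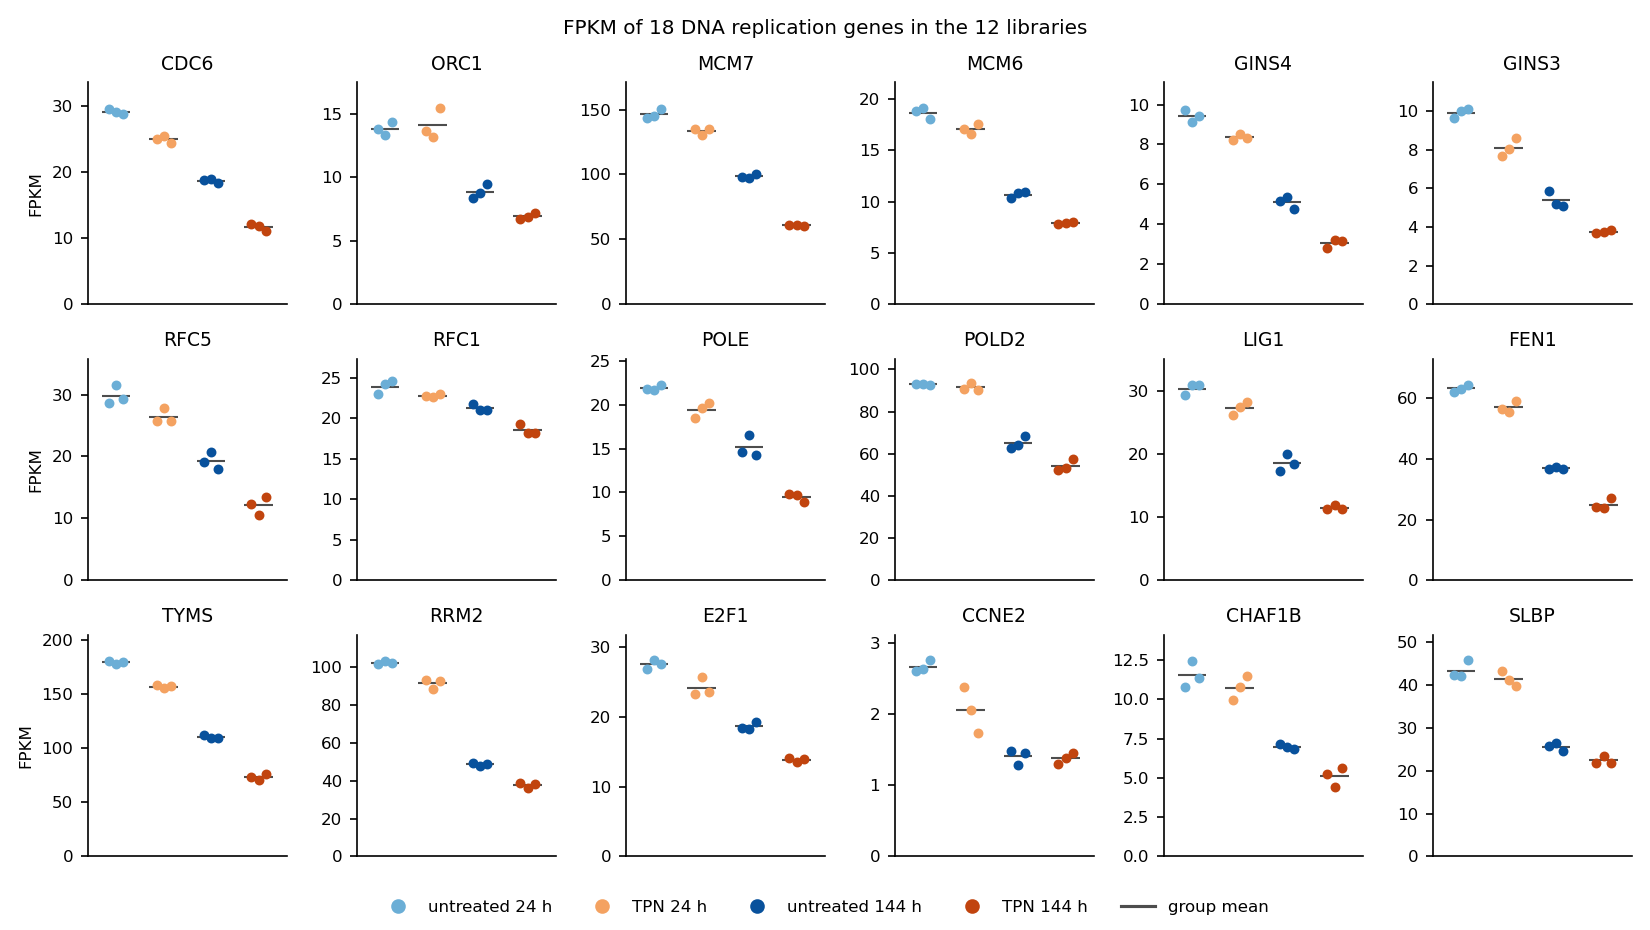
FPKM (vertical axis, from 0) in each of the 12 libraries for the 18 genes whose values are given in full, the member with the largest and the member with the smallest log2 fold change at 144 h in each of 9 roles. Points are libraries, lines are group means, and colours are the 4 groups, with 24 h left of 144 h and untreated left of exposed libraries within each time. The exposed libraries lie below the untreated ones at 144 h in 17 of the 18 genes, and CCNE2 overlaps.

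Time in culture without TPN was accompanied by a fall of all 43 genes. Each was called lower at 144 h than at 24 h in untreated spheroids, with no overlap, where 52.4% of all genes tested were called lower and 53.7% did not overlap in that direction. The median log2 fold change was -0.70, from -1.07 for RRM2 to -0.17 for RFC1, with a median of -0.18 over all genes tested, a difference between these medians of -0.51. Past both thresholds were 31 of 43 genes, against 12.2% of all genes tested in the lower direction, and this count depended on the scaling. With median-ratio scaling, which sets the all-gene median to -0.0074, 14 genes were past both thresholds, and with quantile normalization, which sets it to -0.049, 20 were. RFC1 turned from -0.17 (adjusted p = 0.00109) to 0.0084 (adjusted p = 0.85) with median-ratio scaling, while the 42 other genes stayed below 0, and the call of CDT1 was lost with both scalings. UHRF1, GINS2, CCNE2, GINS3 and GINS4 followed RRM2 with values between -0.91 and -0.87, and the smallest falls after RFC1 were those of CDT1 (-0.22), POLD1 (-0.40) and MCM3 (-0.41).

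In exposed spheroids the 43 genes also fell with time. All 43 were called lower at 144 h than at 24 h, against 52% of all genes tested, and 41 were past both thresholds, against 17.2%, with no overlap in any gene (52.7% of all genes tested). The median log2 fold change was -1.06, with -0.18 over all genes tested, from -1.43 for GINS4 to -0.30 for RFC1. The 2 genes short of the fold threshold were RFC1 and CCNE2 (-0.54). The 4 comparisons share their groups pairwise, for example the untreated spheroids at 144 h enter the comparison by exposure and the comparison by time, so their values are given side by side, and 2 of them were set against each other only in the test of the difference between the TPN effects.

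The difference between the TPN effect at 144 h and that at 24 h was tested for each gene. It was called in 37 of the 43 genes, all with a more negative effect at 144 h, against 16.3% of all genes tested in that direction, and no gene was past both thresholds (1.66% of all genes tested). At an unadjusted p below 0.05 there were 41 genes in the lower and 1 in the higher direction (22.3% and 18.9% of all genes tested), and 0 of these 42 had a difference above 0.58. The median difference was -0.33, with -0.020 over all genes tested. MCM7 had the largest difference, with -0.56 (SE 0.039, adjusted p = 5.76e-07), followed by GINS4 (-0.56), LIG1 (-0.53), PRIM1 (-0.53) and RFC5 (-0.50). CCNE2 had a value of 0.34 in the other direction (adjusted p = 0.110), which was called with 0.45 (adjusted p = 0.0392) when exposed replicate 1 of 24 h was left out. The other 5 genes that were not called were GINS3, RFC1, RFC4, POLD3 and SLBP, with values between -0.24 and -0.13. CHAF1B was called with -0.35 (SE 0.11, adjusted p = 0.0326), a call lost in 8 of the 23 alternatives (adjusted p 0.0132 to 0.0786), 7 of which left out 1 library (untreated replicates 1 and 3 and exposed replicates 2 and 3 of 24 h, untreated replicates 1 and 2 and exposed replicate 2 of 144 h). The calls of POLE2, CCNE1 and PCNA were lost in 13, 8 and 7 alternatives, and RFC4 gained one in 3 and GINS3, RFC1 and POLD3 in 1 each.

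Further genes of replication, 55 in 5 lists that do not overlap with the 43, were read in the same way, and all 55 passed the filter. At 24 h 16 of the 55 were called lower and 1 higher, where 5.46% and 5.04% of all genes tested were. At 144 h 42 were called lower, 4 higher and 9 neither, where 28.3% of all genes tested were called lower and 24.2% higher. Their median at 144 h was -0.35 on the log2 scale. In untreated spheroids, 53 were called lower and 1 higher at 144 h than at 24 h, where 52.4% of all genes tested were called lower and 20.1% higher. Among other licensing and origin firing genes, 11 of 14 were called lower with TPN at 144 h. Values of the 14 ran from -0.65 for TICRR, an activator of origin firing, to -0.061 (not called) for ORC3. Other fork, clamp and polymerase genes were called lower in 12 of 17 and called higher in 2. Values ran from -0.59 for DTL, which targets CDT1 for breakdown, to 0.36 for POLD4, the smallest subunit of polymerase delta. Other genes of nucleotide supply were called lower in 7 of 9 and called higher in 1, which was RRM2B, a p53-induced counterpart of RRM2, with 0.46. Other G1/S control genes were called lower in 8 of 10, with values of the 10 from -1.02 for E2F8, a repressor of the E2F family, to 0.055 (not called) for E2F3. Of 5 other chromatin genes, 4 were lower and 1 higher, and these extremes were the histone chaperones ASF1B, with -0.81, and ASF1A, with 0.50. ASF1A was also the 1 gene called higher at 24 h, with 0.64 (SE 0.042, adjusted p = 3.50e-07), and the fourth gene called higher at 144 h was POLE4, with 0.22.

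Mitosis genes, which are active later in the cell cycle, were read beside the replication genes. Of 20 such genes, 10 were called lower with TPN at 24 h and 20 at 144 h (5.46% and 28.3% of all genes tested), and the medians of their log2 fold changes were -0.14 and -0.56, from -0.74 for CCNB2 to -0.37 for AURKA at 144 h. Without TPN, 20 of 20 were lower at 144 h than at 24 h (52.4% of all genes tested), with a median of -0.53. Replication genes had the lower median of the 2 lists for time in culture without TPN (-0.70) and the higher one for TPN at 144 h (-0.46). For time in exposed spheroids the medians were close, -1.06 for replication and -1.03 for mitosis genes. The order of the 2 lists was not tested.

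**Figure D5:**
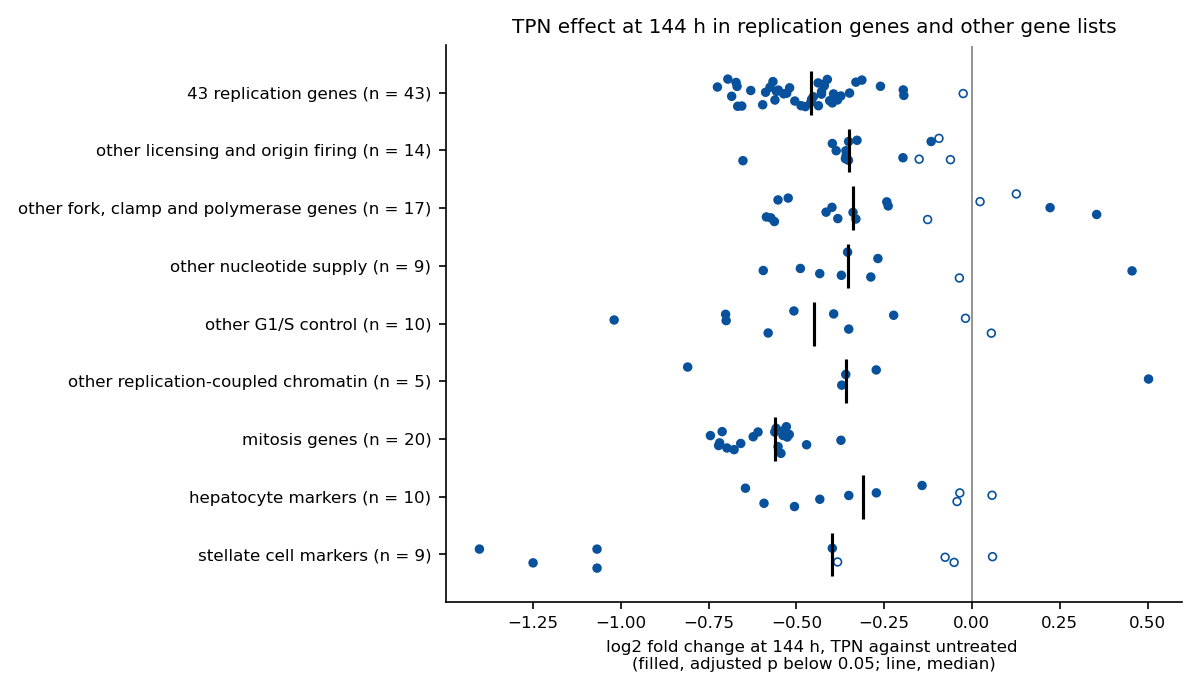
Log2 fold change at 144 h, TPN against untreated (horizontal axis), of the 43 replication genes, 5 lists of other replication genes, 20 mitosis genes and the tested hepatocyte and stellate cell markers (vertical axis). Points are genes, filled when the adjusted p was below 0.05, vertical lines are medians, and the vertical scatter within a list has no meaning. The medians lie below 0 in all 9 lists, and the genes called higher are POLD4, POLE4, RRM2B and ASF1A.

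The summed markers of the 2 cell types were lower with TPN, though not every member, and with time in culture the sums went different ways. Of 10 hepatocyte markers, all were expressed, and their summed FPKM at 24 h was 14694 to 15141 without and 13888 to 14013 with TPN, and at 144 h it was 18709 to 19875 and 15567 to 16708. With TPN, 5 of the 10 were called lower at 24 h and 7 at 144 h (5.46% and 28.3% of all genes tested), with 0 called higher, among them ALB with -0.65 at 144 h. The highest values were 0.056 for AHSG at 24 h, whose exposed libraries lay above the untreated ones, and 0.057 for FGB at 144 h, and neither was called. With time in untreated spheroids, 5 of the 10 were called higher (20.1% of all genes tested) and 3 lower (52.4%), with a median of 0.051 on the log2 scale, while all 43 replication genes were lower. Of 12 stellate cell markers, 9 passed the filter, and DCN, LUM and DES stayed at or near 0 in every group, with medians of 0 to 0.06 FPKM. The summed FPKM of the 12 at 24 h was 138 to 146 without and 123 to 126 with TPN, and at 144 h it was 75.8 to 80.7 and 70.5 to 73.1. In untreated spheroids 8 of the 9 were called lower at 144 h than at 24 h (52.4% of all genes tested). The median log2 fold change of the 9 with time was -2.11, from -2.93 for COL1A1 to -0.0075 for PDGFRB. With TPN, 1 of the 9 was called lower at 24 h and 5 at 144 h (5.46% and 28.3% of all genes tested). At 144 h their median log2 fold change was -0.40, and 4 were past both thresholds, against 3.73% of all genes tested in the lower direction. The lowest value was -1.40 for COL3A1. COL1A1 had a mean of 1.92 FPKM without and 0.75 with TPN at 144 h, and ACTA2, the largest part of the sum, 47.9 and 45.4. The highest values with TPN were 0.020 for COL1A2 at 24 h and 0.059 for SPARC at 144 h, which were not called. The summed levels of both marker lists were lower with TPN at each time, as were the replication genes, and their part in the result was not tested.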

How the data were processed

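RNA of 12 libraries was sequenced for the authors by a service provider on DNBSEQ after a strand-specific preparation. Per the labels and the study's methods, reads were filtered with SOAPnuke, mapped with HISAT2 2.0.4 to GRCh38.p13 and with Bowtie2 2.2.5 to transcripts, and quantified with RSEM, which divides fragments that several genes share, pseudogenes included. The deposited values are FPKM, so a count test such as the one of the study could not be run. The use of strand in counting is not given in the sources used here. No column belonged to other samples, and 20 broken lines without a gene were left out.

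Genes with a mean of at least 0.5 FPKM (11713 of 16705) were fitted as log2(FPKM + 0.1) in a model of 4 groups with limma 3.58.1 in R 4.3.3, with an intensity trend and Benjamini-Hochberg adjustment. The pipeline was tested on simulated data. Depth was estimated from 229 low values of 67 short genes, of which 86.0% were whole fragments within 0.15. In each role, full values are given for the members with the largest and the smallest log2 fold change at 144 h. Of the further replication genes and the mitosis genes, the highest and the lowest of each list at 144 h are named, except 1 that is not reported here. The members, roles and lists were chosen with earlier results of these data known. The printed promoter stretches were narrowed to 120 bases, and the genes shown were chosen among those of the rule, after the motif search. Tables and plots were made with pandas 2.3.3 and matplotlib 3.10.9. Alternatives changed the pseudocount, the filter, the scaling, the model, the replicate block and each replicate in turn.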

Additional observations from a re-analysis of the deposited data

Results flagged for a closer look

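In 37 of the 43 replication genes the TPN effect after 144 h was not the one after 24 h by the test of that difference itself (the interaction term of the limma fit, adjusted p below 0.05), all with a more negative effect at 144 h, against 16.3% of all genes tested in that direction. Among genes with full values, the difference in log2 fold change was -0.56 for MCM7, -0.56 for GINS4, -0.53 for LIG1, -0.50 for RFC5, -0.49 for POLE, -0.45 for CDC6, -0.42 for FEN1, -0.40 for TYMS and -0.37 for ORC1. Smaller differences were -0.35 for CHAF1B, -0.30 for MCM6, -0.24 for E2F1, -0.24 for POLD2 and -0.21 for RRM2. The call of CHAF1B was lost in 8 of 23 alternatives (adjusted p up to 0.0786). CCNE2 had a difference of 0.34 in the other direction, which was not called (adjusted p = 0.110). In each of the 14 genes named before CCNE2 the level with TPN relative to untreated spheroids was lower at 144 h than at 24 h, and no explanation was tested.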

How the results depend on the processing

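Across 23 alternatives, 12 to 19 replication genes were called with TPN at 24 h and 40 to 42 at 144 h, with 8 to 12 past both thresholds at 144 h. The lowest count of 40 came with the filter at a mean of 5 FPKM, which left 3 of the 43 genes untested. With time, 40 to 43 genes were called in untreated and in exposed spheroids, and past both thresholds were 14 (median-ratio scaling) and 20 (quantile normalization) against 31 in untreated spheroids, and 36 to 42 in exposed ones. The difference between the TPN effects was called in 34 to 38 genes, and 1 gene was past both thresholds with quantile normalization and without untreated 24 h replicate 1, untreated 24 h replicate 3, untreated 144 h replicate 3 or TPN 144 h replicate 2, against 0.

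Leaving out 1 library gave 12 to 19 called genes at 24 h with 0 past both thresholds, 42 at 144 h with 8 to 12 past both, 43 with time in untreated (30 to 32 past both) and 43 in exposed spheroids (41 to 42), and 34 to 36 for the difference (0 to 1). Signs turned for values near 0. ORC1 at 24 h ranged from -0.041 to 0.071 with 1 library left out and was -0.00089 (adjusted p = 0.996) without untreated 24 h replicate 2 and -0.041 (adjusted p = 0.765) without TPN 24 h replicate 3. CCNE2 at 144 h ranged from -0.082 to 0.014 with 1 library left out, and from -0.14 to 0.014 over the 22 alternatives that tested it. Its value was 0.011 without untreated 144 h replicate 1 and 0.014 without TPN 144 h replicate 1. RFC1 with time in untreated spheroids was 0.0084 (adjusted p = 0.85) with median-ratio scaling and -0.020 (adjusted p = 0.643) with quantile normalization. The causes were not tested.

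Deviations from the group means correlated at -0.083 to 0.15 between replicates of the same number (median 0.046, 5 of 18 pairs above 0.1) and at -0.24 to 0.11 between others (median -0.016, 2 of 36). Not every pair of the same number passed 0.1, and these correlations cannot show that the replicates were unpaired. The labels do not name the cultures behind the numbers, so the numbers were not taken as pairs. With the replicate block no count moved by over 1.5 times, LIG1 at 24 h was called (adjusted p = 0.0310) and CCNE2 at 24 h was not (adjusted p = 0.0683). Depth was only estimated, so no counting interval is given for single values.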

Other observations

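Among replication genes that act at the same fork, the ratio of PCNA to FEN1 in FPKM at 24 h was 6.67 ± 0.147 (SD, n = 3) without and 6.40 ± 0.284 with TPN, and at 144 h it was 6.27 ± 0.160 and 7.40 ± 0.304. The libraries of the 2 groups overlapped at 24 h and did not overlap at 144 h. GINS1 over GINS4 at 24 h was 2.29 ± 0.0980 without and 2.36 ± 0.0690 with TPN, and at 144 h it was 2.75 ± 0.191 and 3.17 ± 0.381, where the libraries overlapped. POLE over POLE2 was 3.22 ± 0.146, 3.16 ± 0.503, 3.75 ± 0.487 and 3.41 ± 0.236 in the same order of groups, and its libraries overlapped between exposed and untreated spheroids at both times. These ratios were chosen with their values in view and carry no test.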
